A study of Mus musculus with 11 samples.

Results

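The genes described here are 34 protein-coding genes of skeletal muscle, read out in the back skin of mice. They are the rows of the deposited gene table whose symbol is on a list of contractile, calcium-handling and energy-supply genes of striated muscle and no value in the table enters that rule, though the list was drawn up with earlier results of these data known. All 34 were found among the 38406 gene symbols of the table, and all 34 reached the mean of 10 normalized counts that a gene needed for testing, which 13215 genes reached. They were sorted by role into 14 genes of fast fibres, 4 of slow fibres, 7 of the sarcomere and Z-disc that both kinds of fibre use, 3 of excitation and calcium release, and 6 of energy supply.

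RNA came from whole pieces of back skin ground to powder, from 6 mice lacking Trex2 (Trex2-/-, numbered KO 7 to KO 12) and 5 wild-type mice (WT 2 to WT 6), all female C57BL/6 of 8 to 10 weeks. Trex2 encodes a 3′-to-5′ DNA exonuclease of keratinocytes. Mice of both genotypes were shaved and received 125 mg of a cream with 5% imiquimod, a TLR7 agonist that produces psoriasis-like inflammation, once a day for 4 days, and the skin was taken 24 hours after the final dose. Untreated skin was not analysed here, so no value below is an effect of imiquimod. The deletion is carried in every cell, and the labels do not say how deep the skin was cut or how much muscle each piece held. The submitters call the samples of a group biological replicates.

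Under the skin of a mouse lies the panniculus carnosus, a thin sheet of striated muscle that moves the skin and is removed with it when a full-thickness piece is cut. Muscle contracts when a voltage-gated calcium channel in the cell membrane opens the ryanodine receptor of the calcium store, calcium binds troponin C, and the troponin complex of subunits C, I and T then lets myosin heads pull on actin. Fast and slow fibres make different versions of these proteins from different genes: Tnnt3, Tnni2 and Tnnc2 encode the troponins of fast fibres and Tnnt1, Tnni1 and Tnnc1 those of slow fibres, while Myh4, Myh1 and Myh2 encode the myosin heavy chains of type IIB, IIX and IIA fibres and Myh7 that of slow type I fibres.

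The sequences before the start sites of 5 genes are shown, chosen for their level or for the fibre types that the comparisons below turn on. Acta1 had the highest level per length, Myh1 and Myh4 are the abundant fast myosins, and Tnnt1 and Tnnc1 are slow troponins. Tnni1, which had the lowest level per length, is not shown. Each is 250 bases that end just before the RefSeq start site, on GRCm38.p6, 5′ to 3′ on the strand of the gene. Capitals mark matches to 4 motifs searched on both strands: the E-box CANNTG bound by the MyoD family of muscle factors, the TATA box TATAAA, and the MEF2 site and CArG box, which bind MEF2 and SRF. Where 2 matches overlap, the capitals run over both.
Acta1 (chr8:123894776-123895025, minus strand): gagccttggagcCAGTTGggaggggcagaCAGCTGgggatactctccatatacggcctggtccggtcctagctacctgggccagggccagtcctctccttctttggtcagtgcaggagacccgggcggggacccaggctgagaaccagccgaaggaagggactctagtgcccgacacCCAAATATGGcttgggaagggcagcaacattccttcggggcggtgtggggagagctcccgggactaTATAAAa
Myh1 (chr11:67199852-67200101, plus strand): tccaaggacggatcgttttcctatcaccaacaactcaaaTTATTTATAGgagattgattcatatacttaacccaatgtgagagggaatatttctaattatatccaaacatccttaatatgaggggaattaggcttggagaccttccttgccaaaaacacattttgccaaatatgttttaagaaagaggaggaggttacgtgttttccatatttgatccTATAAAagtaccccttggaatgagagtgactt
Myh4 (chr11:67237562-67237811, plus strand): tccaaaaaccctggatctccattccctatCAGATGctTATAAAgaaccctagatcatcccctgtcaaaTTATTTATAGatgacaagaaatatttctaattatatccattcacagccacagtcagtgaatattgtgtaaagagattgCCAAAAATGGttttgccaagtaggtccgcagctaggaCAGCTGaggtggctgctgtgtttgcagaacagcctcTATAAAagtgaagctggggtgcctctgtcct
Tnnt1 (chr7:4515976-4516225, minus strand): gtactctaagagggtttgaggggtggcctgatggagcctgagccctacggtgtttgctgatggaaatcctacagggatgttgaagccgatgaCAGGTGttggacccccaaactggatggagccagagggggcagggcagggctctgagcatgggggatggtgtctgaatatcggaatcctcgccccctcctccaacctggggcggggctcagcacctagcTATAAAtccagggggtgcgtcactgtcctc
Tnnc1 (chr14:31208062-31208311, plus strand): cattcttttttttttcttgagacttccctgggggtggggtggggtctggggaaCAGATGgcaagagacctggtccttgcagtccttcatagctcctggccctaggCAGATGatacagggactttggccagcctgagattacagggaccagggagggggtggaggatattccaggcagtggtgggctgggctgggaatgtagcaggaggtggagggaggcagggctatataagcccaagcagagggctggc

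Myh1 and Myh4 share the same 10 letters TTATTTATAG as their MEF2 match, and a TATA box match on the reverse strand lies within those letters in both genes. Myh4 held 7 matches, Acta1 4, Myh1 3, Tnnt1 2 and Tnnc1 2. RefSeq start sites were matched for 27 of the 34 genes, in 31 windows of 250 bases. An E-box stood in 87.1% of these windows, against 66.2% of all 32841 windows of the same length. A MEF2 match stood in 6 of the 31 muscle gene windows (19.4%), against 2.92% of all windows. A CArG box stood in 2 of the 31 (6.45%), those of Acta1 and Myh4, against 1.47%. The TATA box stood in 16.1%, against 12.4%. These are descriptions of letters in a window, and no binding was measured. Trdn, Tnni2, Neb, Tcap, Actn3, Tnnt3 and Myoz1 are named only.

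Counted reads per library were 3125366 to 15557862 in Trex2 KO skin and 1208896 to 5853454 in WT skin, so the KO libraries were on the whole deeper. A count of 3 reads, taken as the limit of detection, was worth 1.04 to 13.5 normalized counts, the highest value being in WT 3. Trex2 itself averaged 1.85 ± 0.909 normalized counts in KO skin (SD, n = 6) and 1480 ± 446 in WT skin (SD, n = 5), with every KO library below every WT library. Whole skin is a mixture, and in such bulk RNA fewer cells of a type and less RNA per cell cannot be told apart.

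The 34 genes together took 1.13% to 2.57% of all reads in KO skin and 1.57% to 2.24% in WT skin. Acta1, the actin of skeletal muscle thin filaments, alone made up 20.9% to 25.6% of these reads in the 11 libraries. Levels of different genes were compared per kilobase of exon. On that scale Acta1 led with 15635 normalized counts per kb over the 11 libraries, and after it came the fast troponins T and I, Tnnt3 with 3956 and Tnni2 with 3271, the fast-fibre calcium pump Atp2a1 with 2836 and the fast regulatory light chain Mylpf with 2756. At the other end stood the slow troponins, Tnnc1 with 23.5 per kb, Tnnt1 with 10.7 and Tnni1 with 3.05, with the giant spring protein titin, Ttn, at 14.1 among them. The place of Ttn comes from its merged exon length of 116825 bases. Before division by length it averaged 1643 normalized counts, against 24.5 for Tnnc1, 23.5 for Tnnt1 and 11.0 for Tnni1. Per kb, then, each slow troponin was far below its fast partner, Tnnc2 standing at 2402 per kb.

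Of further genes of slow fibres, heart and new fibres, 6 are given here as low or at 0, while others passed the filter. The myosin heavy chain Myh8 averaged 16.1 normalized counts, and 4 of 9 genes listed for cardiac muscle were tested. The cardiac list summed to 55.2 to 269.6 normalized counts in KO skin and 150.6 to 272.2 in WT skin. Atp2a2, the calcium pump of slow and cardiac muscle that skin cells also make, averaged 2249 in KO skin and 1499 in WT skin. Mybpc1, listed with the slow-fibre genes, stood at 480.4 per kb, the 17th of the 34. Myh7, the slow myosin heavy chain, and the heart genes Myh6 and Nppa had 0 reads in all 11 libraries, which allows up to 3 reads per library. The slow light chains Myl2 and Myl3 had at most 1.39 and 1.82 normalized counts, at or below 3 reads in every library. Embryonic myosin Myh3, which marks new or regenerating fibres, was also low, from 2.08 to 27.3 normalized counts in KO skin and from 0 to 28.9 in WT skin, and none of these 6 genes reached the filter for testing.

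No muscle gene differed between the genotypes past an adjusted p of 0.05 in limma, which was fitted to log2(normalized count + 1) of all tested genes with Benjamini-Hochberg adjustment. That call was made for 0.0151% of all 13215 genes and one of them was Trex2, so the count of 0 among 34 is near the background. At an unadjusted p under 0.05, limma gave 3 muscle genes higher in KO skin (Ttn, Neb and Ckmt2) and 6 lower (Tnnt1, Tnni1, Tnnc1, Myh4, Tnnc2 and Des), against 12.9% of all genes higher and 11.5% lower. Run on the recovered reads, edgeR's quasi-likelihood test called 0 of the 34 (0.0303% of all genes) and DESeq2 called 1 of the 34, Tnnt1 (4.63% of all genes). The log2 fold change, KO over WT, was negative for 24 of the 34 and positive for 10, with a median of −0.24, whereas 49.0% of all genes were negative and their median was 0.01. Values within a genotype also spread more for the muscle genes, with a median SD of 0.46 on the log2 scale against 0.33 for all genes. That spread was not particular to the 34. Among the lists described below the median SD was larger in some (0.66 for keratinocyte and 0.48 for leukocyte genes). In others it was smaller (0.39 for other skeletal muscle genes and 0.29 for fibroblast genes).

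**Figure D1:**
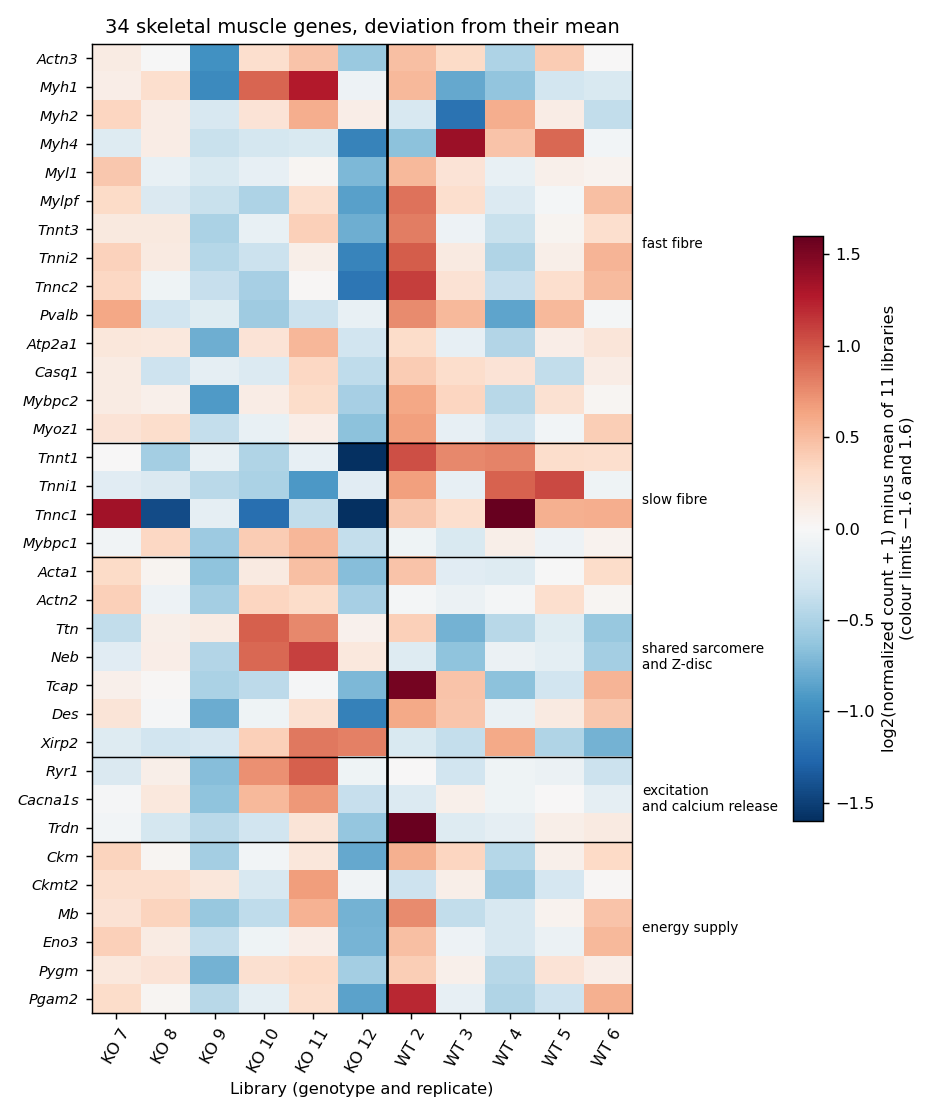
Each row is a muscle gene and each column a library, KO 7 to KO 12 left of the thick line and WT 2 to WT 6 right of it, with colour for the log2(normalized count + 1) minus the gene's mean over the 11 libraries. KO 9 and KO 12 are blue in most rows and WT 2 is red in most rows, while Tnnt1 and Tnni1 are the rows in which every KO library lies below every WT library.

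The slow troponins had the largest fold changes of the 34 genes, all toward lower values in KO skin. Tnnt1, which ties the troponin complex of slow fibres to tropomyosin, had 4.86, 16.7 and 20.8 normalized counts at the lowest, median and highest of the 6 KO libraries, against 43.6, 36.1, 36.7, 25.4 and 25.1 in the 5 WT libraries. Every KO library lay below every WT library, but the margin rests on few reads. The highest KO value, 20.8 in KO 7, came from 12 reads and the lowest WT value, 25.1 in WT 6, from 16. WT 3 had 8 reads. Its log2 fold change was −1.16 (SE 0.33), with an adjusted p of 0.108 in limma, 0.130 in edgeR and 0.0394 in DESeq2. The values rest on 142 reads in all 6 KO libraries and 109 in all 5 WT libraries. KO 12 had the lowest normalized count, 4.86 from 14 reads, and without any one library the log2 fold change ran from −1.26 to −0.88.

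Tnni1, the inhibitory subunit of slow fibres, had 4.82, 7.73 and 8.68 normalized counts at the lowest, median and highest of the KO libraries, against 16.3, 9.03, 20.01, 21.8 and 9.41 in the WT libraries. Here too no KO library reached a WT library, and the margin was thinner. The highest KO value of 8.68 and the lowest WT value of 9.03 were 2 libraries in which 1 read was worth 0.347 and 4.51 normalized counts, and that WT value, in WT 3, rests on 2 reads. This gave a log2 fold change of −0.90 (SE 0.32), with an adjusted p of 0.133 in limma and 0.130 in edgeR, while DESeq2 gave no adjusted p for it. Groups with every KO library below every WT library were found for 1.29% of all genes, and with every KO library above for 1.02%. Among the muscle genes the counts were 2 of 34 and 0 of 34.

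Tnnc1, the calcium-binding subunit of slow and cardiac troponin, had 4.51, 10.7 and 48.6 normalized counts at the lowest, median and highest of the KO libraries, against 25.4, 22.6, 67.8, 28.1 and 28.2 in the WT libraries. The groups overlapped through KO 7 alone, the KO library at 48.6, since the next highest KO value was 16.7. The log2 fold change was −1.34 (SE 0.50), with an adjusted p of 0.143 in limma. It was the most variable slow gene.

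Mybpc1 carries the name of slow myosin-binding protein C but is also made in fast fibres, and it did not share the pattern of the slow troponins. It had 1413, 2359 and 3068 normalized counts at the lowest, median and highest of the KO libraries, against 2014, 1792, 2269, 2006 and 2201 in the WT libraries, so that all WT libraries lay inside the KO range. The log2 fold change was 0.09 (SE 0.20), with a 95% interval from −0.33 to 0.51 and an adjusted p of 0.791 in limma.

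**Figure D2:**
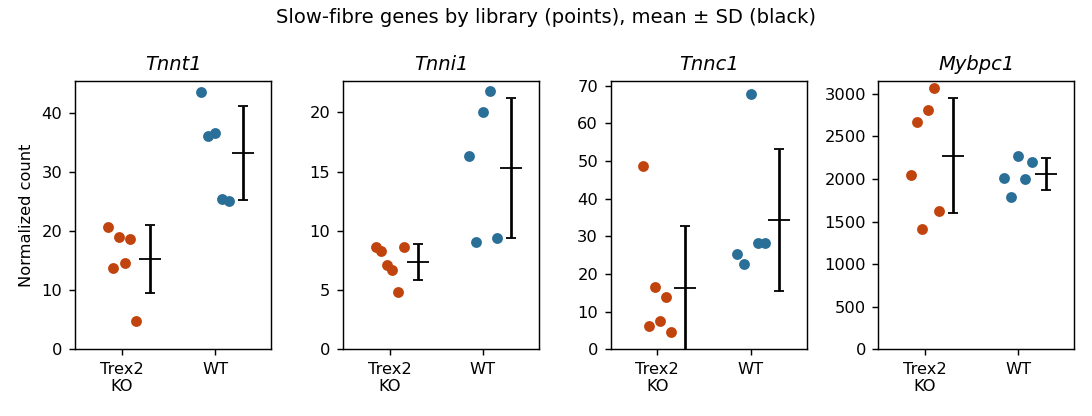
Normalized counts of the 4 slow-fibre genes, 1 point per library, Trex2 KO left of WT, with mean and SD in black (the lower bar of Tnnc1 in KO skin is cut at 0). The groups are apart for Tnnt1 and Tnni1, overlap through KO 7 at 48.6 for Tnnc1, and overlap throughout for Mybpc1, whose axis runs higher.

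To ask whether slow genes differed beyond the amount of muscle, each slow troponin was set against its fast partner within a library. These ratios of normalized counts are not per length and serve only to compare libraries. Tnnt1 was 0.139% to 0.450% of Tnnt3 in KO skin and 0.346% to 0.785% of it in WT skin. The difference on the log2 scale, KO minus WT, was −0.90, with p = 0.0216 in a two-sided exact permutation test over the 11 libraries and 0.0649 after adjustment over the 6 ratios tested. The ranges overlapped, through KO 9 at 0.450%.

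The other slow-to-fast ratios overlapped more. Tnni1 was 0.0987% to 0.394% of Tnni2 in KO skin and 0.141% to 0.609% in WT skin, a log2 difference of −0.43 with an exact permutation p of 0.357 (adjusted 0.429). Tnnc1 was 0.367% to 2.16% of Tnnc2 in KO skin and 0.662% to 4.92% in WT skin, a log2 difference of −0.70 with an exact permutation p of 0.277 (adjusted 0.416). In both ratios the highest WT library was WT 4, and without it the log2 differences were −0.14 for Tnni1 to Tnni2 and −0.25 for Tnnc1 to Tnnc2. Tnni1 to Tnni2 was also smaller without WT 5 (−0.25) or KO 11 (−0.27). Ube2c, a cell-cycle gene on the opposite strand, overlaps 74.0% of the exon length of Tnnc2, and no source used here gives the strand setting of the counting, so reads of Tnnc2 and Ube2c cannot be told apart there.

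The fast myosin heavy chains did not move as one. Myh4, of the fastest IIB fibres, had 1322, 2313 and 3022 normalized counts at the lowest, median and highest of the KO libraries, against 1764, 7216, 3813, 5263 and 2702 in the WT libraries. Among the KO libraries 1 value, 3022 in KO 8, stood above 2702, while WT 2 at 1764 lay inside the KO range. Between the genotypes the log2 fold change was −0.75 (SE 0.31), with an adjusted p of 0.169 in limma.

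Myh1, of IIX fibres, had 3020, 6980 and 14777 normalized counts at the lowest, median and highest of the KO libraries, against 8782, 3461, 3949, 4992 and 5183 in the WT libraries. The KO libraries spanned the whole WT range. Its log2 fold change was 0.54 (SE 0.36), with an adjusted p of 0.354 in limma. Myh2, of IIA fibres, had 344, 460 and 611 normalized counts at the lowest, median and highest of the KO libraries, against 343, 181, 615, 447 and 312 in the WT libraries, a log2 fold change of 0.41 (SE 0.25) with an adjusted p of 0.325 in limma. Myh1 was at 0.34 without KO 11 and Myh2 at 0.17 without WT 3. The 3 genes stand side by side on chromosome 11 in the order Myh2, Myh1, Myh4 and have near-identical coding sequences, so reads that fit more than 1 of them make each value uncertain.

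As a share of the summed sarcomeric myosin heavy chain level per kb, Myh1 averaged 71.5% ± 10.7 in KO skin (SD, n = 6) and 53.0% ± 18.8 in WT skin (SD, n = 5). Myh4 averaged 24.2% ± 10.0 in KO skin and 43.3% ± 18.9 in WT skin. Myh2 averaged 4.16% ± 1.10 in KO skin and 3.51% ± 1.82 in WT skin. The WT libraries differed widely among themselves, with Myh4 at 17.0% in WT 2 and 67.7% in WT 3.

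Of the 3 ratios among these myosins, Myh4 to Myh2 had a log2 difference of −1.16, KO minus WT, with an exact permutation p of 0.0195 and 0.0649 after adjustment over the 6 ratios. It was −0.68 without WT 3, the WT library with most Myh4, and the adjusted p ran from 0.0571 to 0.171 without any one library. Myh4 to Myh1 had a log2 difference of −1.29 with an exact permutation p of 0.0736 (adjusted 0.147). Myh2 to Myh1 had a log2 difference of −0.13 with an exact permutation p of 0.742 (adjusted 0.742), and it turned positive, to 0.15, without WT 4. None of the 6 ratios passed an adjusted p of 0.05, and the smallest p that 6 against 5 libraries allow is 0.00216.

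**Figure D3:**
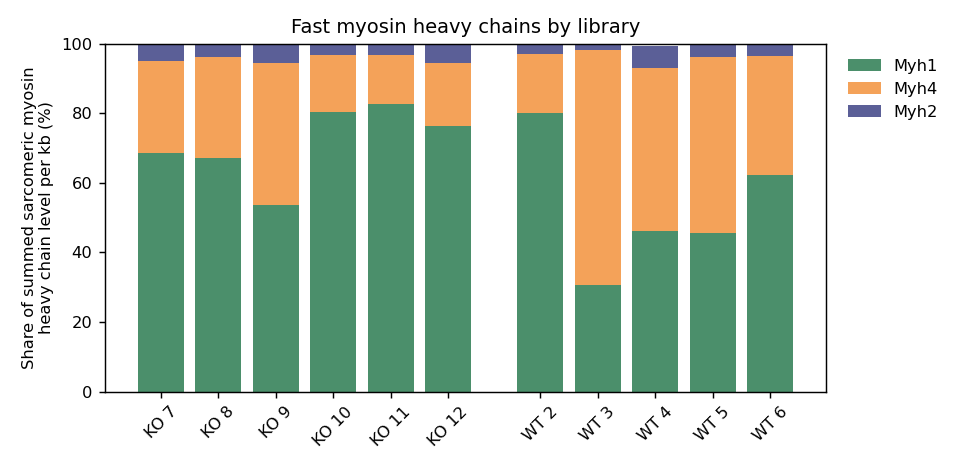
Stacked bars give the share of each fast myosin heavy chain in the summed sarcomeric myosin heavy chain level per kb, 1 bar per library, KO 7 to KO 12 left of WT 2 to WT 6. Myh1 holds over 50% of every KO bar, from 53.6% to 82.9%, whereas its share of the WT bars runs from 30.7% to 80.1%. Myh4 is the largest share in WT 3 (67.7%), WT 5 (50.7%) and, narrowly, WT 4 (47.0% against 46.1% for Myh1).

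The other 11 fast-fibre genes lay close together, and 10 of the 11 had a negative log2 fold change, from −0.64 to −0.21. The exception was Atp2a1 at 0.00 (SE 0.23). Tnnc2, fast troponin C, had 795, 1538 and 2245 normalized counts at the lowest, median and highest of the KO libraries, against 3840.0, 2085, 1379, 2150 and 2526 in the WT libraries. The groups overlapped, with the KO median below 4 of the 5 WT values. Its log2 fold change was −0.64 (SE 0.27), with an adjusted p of 0.176 in limma.

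Mylpf, the fast regulatory light chain, had a log2 fold change of −0.50 and fast troponin I, Tnni2, one of −0.46, neither past the threshold (adjusted p of 0.207 and 0.312 in limma). The calcium buffer Pvalb stood at −0.34, the fast myosin-binding protein C Mybpc2 at −0.29, the light chain Myl1 at −0.28 and the fast α-actinin Actn3 at −0.26. Fast troponin T, Tnnt3, stood at −0.25, the calcium store protein Casq1 at −0.23 and the Z-disc protein Myoz1 at −0.21. KO and WT libraries overlapped for every one of them. Without WT 2 Tnni2 stood at −0.29, Pvalb at −0.19 and Mybpc2 at −0.18, and without KO 12 Myl1 stood at −0.16. Mybpc2 was at −0.14 without KO 9. For Actn3, Tnnt3 and Myoz1 the sign rested on KO 9 and KO 12, and without both libraries the values were 0.07, 0.01 and 0.01. KO 9 and KO 12 were the lowest libraries of all for each of these genes, so leaving them out could only raise the value. Atp2a1 shares 21.9% of its exon length with Rabep2 on the opposite strand.

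Among the 7 genes of the shared sarcomere, the long proteins titin and nebulin stood higher in KO skin at an unadjusted p under 0.05 and desmin lower. Ttn had 1166, 1661 and 2974 normalized counts at the lowest, median and highest of the KO libraries, against 1991, 912, 1125, 1336 and 1006 in the WT libraries, a log2 fold change of 0.60 (SE 0.25) with an adjusted p of 0.171 in limma. Neb, the ruler of the thin filament, had 955.7, 1460.0 and 2826 normalized counts at the lowest, median and highest of the KO libraries, against 1154, 848, 1242, 1187 and 910 in the WT libraries, also a log2 fold change of 0.60 (SE 0.25) with an adjusted p of 0.174 in limma. For both genes KO 10 and KO 11 were the highest libraries. For Ttn the other 4 KO values lay within the WT range, whereas for Neb KO 8 at 1428 and KO 12 at 1492 also stood above every WT value.

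Des, the intermediate filament that ties Z-discs together and that smooth muscle also makes, had 4032, 8307 and 10187 normalized counts at the lowest, median and highest of the KO libraries, against 12994, 11647, 7968, 9429 and 11588 in the WT libraries. The log2 fold change was −0.55 (SE 0.25), with an adjusted p of 0.195 in limma, and KO 12 and KO 9 were the lowest libraries. Tcap, the titin cap of the Z-disc, stood at −0.57 (SE 0.31), with WT 2 at 1450.0 against 304.7 to 732.8 in all other libraries, and at −0.27 without WT 2. Xirp2, a Z-disc and intercalated disc protein, stood at 0.46 (SE 0.27).

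Acta1 had 14515, 24736 and 32336 normalized counts at the lowest, median and highest of the KO libraries, against 31874, 20537, 20213, 23108 and 28468 in the WT libraries. The KO range held every WT value, and the log2 fold change was −0.13 (SE 0.25), with a 95% interval from −0.67 to 0.40, turning to 0.20 under quantile normalization. Actn2, the α-actinin of every fibre, stood at −0.05 (SE 0.20), with a 95% interval from −0.47 to 0.37, and turned to 0.03 under quantile normalization.

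The 3 genes of excitation and calcium release did not pass the test either. Ryr1, the calcium release channel, had a log2 fold change of 0.30 (SE 0.25), Cacna1s, the voltage sensor of the membrane, one of 0.13 (SE 0.21), and Trdn, which anchors calsequestrin to Ryr1, one of −0.54 (SE 0.28). Without KO 11, the highest library for Ryr1 and Cacna1s, these 2 stood at 0.14 and 0.00. Trdn had 412, 516 and 731 normalized counts at the lowest, median and highest of the KO libraries, against 1889, 551, 573, 677 and 701 in the WT libraries. WT 2 stood far above all others for this gene, and without it the log2 fold change was −0.22.

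Of the 6 energy-supply genes only Ckmt2, the creatine kinase of muscle mitochondria, had a positive log2 fold change. It had 230.3, 321 and 438 normalized counts at the lowest, median and highest of the KO libraries, against 219.6, 293, 183, 229 and 279 in the WT libraries. The groups overlapped, and the log2 fold change was 0.39 (SE 0.17) with an adjusted p of 0.186 in limma. The cytosolic creatine kinase Ckm stood at −0.31, or −0.17 without KO 12, and the glycolytic enzyme Pgam2 at −0.31, or −0.05 without WT 2. Myoglobin, Mb, which stores oxygen and is most abundant in oxidative fibres, stood at −0.23, the muscle enolase Eno3 at −0.21 and the muscle glycogen phosphorylase Pygm at −0.13. Without WT 2 Mb stood at −0.07, and without KO 12 Eno3 stood at −0.08 and Pygm at −0.03. Pygm turned to 0.01 without KO 9. Mb shares 27.6% of its exon length and Ckm 15.5% with antisense genes on the opposite strand.

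The same few libraries were lowest or highest for many of the genes. KO 12 was the lowest library for 18 of the 34 genes and KO 9 for 9, and for 15 genes these were the 2 lowest of all 11. WT 2 was the highest library for 18 genes and KO 11 for 9. WT 4 lay below the mean of the 11 libraries for 26 of the 34 genes, against 32 for KO 9 and 30 for KO 12. In KO 9 and KO 12 the muscle genes took 1.13% and 1.19% of reads, against 1.91% to 2.57% in the other KO libraries. With a Wilson 95% interval of 1.13% to 1.14% in KO 9, counting error is small beside these differences, though it covers counting only.

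The same KO 9 and KO 12 had the highest summed levels of 9 keratinocyte genes, 206240.0 and 184037 normalized counts, in a list whose sum ran from 62648 to 206240.0 in KO skin (median 103140.0) and from 37957 to 103603 in WT skin (median 48317). All 9 keratinocyte genes had positive log2 fold changes, with a median of 1.395, and limma called 0 of the 9, with 7 at an unadjusted p under 0.05. Leukocyte genes ran the other way, 7 of 7 tested with negative log2 fold changes and a median of −0.74, also with 0 called. Their sum ran from 16751 to 69307 normalized counts in KO skin and from 42718 to 93500 in WT skin. The part of these other cells in the muscle values was not tested.

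**Figure D4:**
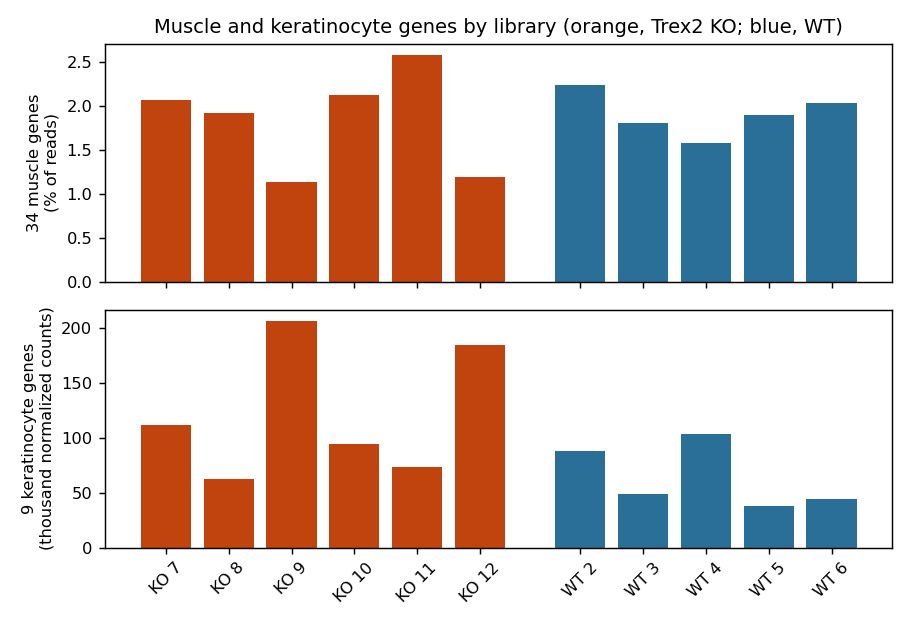
Upper bars give the share of all reads taken by the 34 muscle genes and lower bars the summed normalized counts of 9 keratinocyte genes, by library, Trex2 KO in orange left of WT in blue. KO 9 and KO 12 have the lowest muscle shares, 1.13% and 1.19%, and the highest keratinocyte sums.

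Exon length moved with the sign of the fold changes. Of the 14 muscle genes with under 2 kb of exon 1 had a positive log2 fold change (Ckmt2), with a median of −0.28, and of the 9 with over 5 kb 7 were positive, with a median of 0.41. The 11 genes between had 2 positive values and a median of −0.28. All tested genes with a known length leaned the same way, with 30.4% positive and a median of −0.19 under 2 kb, 46.1% and −0.04 from 2 to 5 kb, and 63.3% and 0.11 over 5 kb.

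The lean came with particular libraries. The median log2 deviation of genes over 5 kb minus that of genes under 2 kb, over all genes, was 0.42, 0.38 and 0.48 in KO 10, KO 11 and KO 12, the deepest libraries, and −0.53 and −0.32 in WT 2 and WT 6. Over all genes each genotype held both signs, with −0.25 in KO 7, −0.22 in KO 9 and 0.15 in WT 4. Among the muscle genes alone the same difference was 0.82, 0.59 and 0.69 in KO 10, KO 11 and KO 12 and −0.96 and −0.81 in WT 2 and WT 6. It was −0.48 in KO 7, −0.05 in KO 9 and 0.26 in WT 4. With the length trend of each library removed, Ttn stood at 0.12, Neb at 0.32, Ckmt2 at 0.59 and Myh4 at −0.82. Tnnt1 then stood at −1.03, Tnnc1 at −1.10 and Tnni1 at −0.87. The muscle genes still split by length after this removal, with 7 of the 9 over 5 kb positive (median 0.12) and 2 of the 14 under 2 kb (median −0.08). Among all tested genes with a known length, 2706 of 5304 over 5 kb and 905 of 1734 under 2 kb were then positive. With the log10 of the reads per library as a covariate instead, Ttn and Neb stood at 0.18 each, Myh4 at −0.36, Tnnt1 at −0.65, Tnnc1 at −0.69 and Tnni1 at −1.16. The KO libraries were the deeper ones, so depth and genotype are partly confounded in this covariate. What links length to these libraries was not tested.

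**Figure D5:**
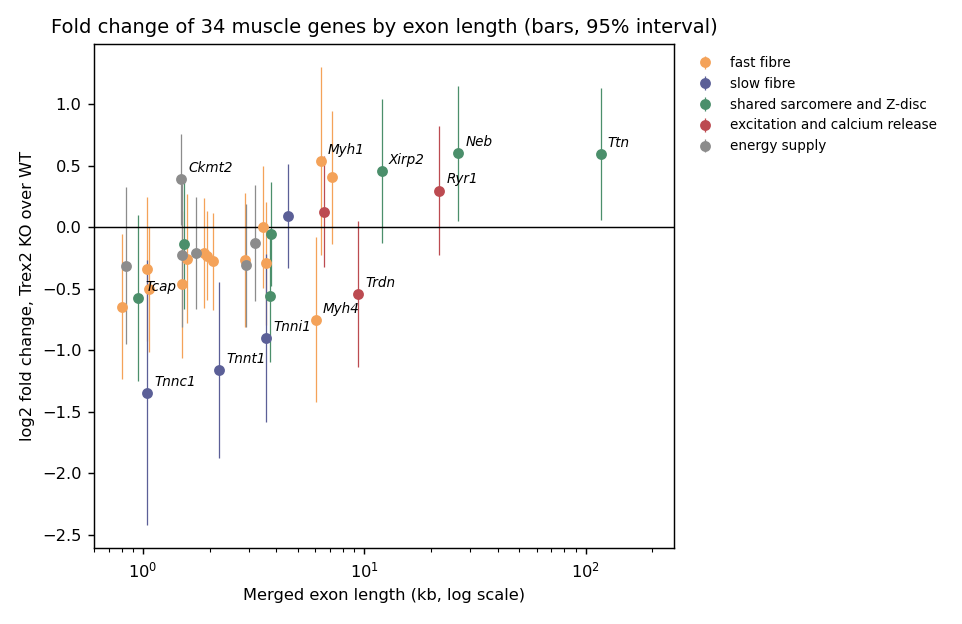
Log2 fold change of each muscle gene, Trex2 KO over WT, against its merged exon length in kb on a log axis, with 95% intervals from limma and colour for the role. Genes over 5 kb lie mostly above 0, among them Ttn and Neb at 0.60 each, and the slow troponins lie lowest at −1.34, −1.16 and −0.90.

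Outside the 34 genes, a list of 74 other skeletal muscle genes had 67 tested, with 24 positive and 43 negative log2 fold changes and a median of −0.16. limma called 0 of them, with 2 higher and 6 lower at an unadjusted p under 0.05, and edgeR and DESeq2 called 0. Its 2 genes of smallest p were Atp2a2, the calcium pump of slow and cardiac muscle that skin cells also make, at 0.58 (SE 0.18, adjusted p 0.115), and Cacng1, a subunit of the calcium channel, at −0.80 (SE 0.26, adjusted p 0.116). Of 10 tested myogenic and satellite cell genes 2 were positive and 8 negative, with a median of −0.23, and Mef2c and Myf6 had the smallest p, with log2 fold changes of −0.25 and −0.32. Of 8 neuromuscular junction genes 5 were positive, with a median of 0.19, among them Lrp4 at 0.67, whereas Rapsn, which clusters acetylcholine receptors, stood at −0.68. Of 12 genes of muscle atrophy and stress 4 were positive, with a median of −0.26, and Foxo1 stood at −0.34 and the metallothionein Mt2 at −0.59. limma, edgeR and DESeq2 called 0 in each of these 3 lists, with 0, 2 and 2 genes at an unadjusted p under 0.05 in limma.

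Genes of the other tissues that lie beside the muscle sheet were also counted by sign, beside 49.0% negative among all genes. Of 14 tested smooth muscle and pericyte genes 6 were positive and 8 negative, with a median of −0.19, and Acta2 had 522 to 892 normalized counts in KO skin against 892 to 1187 in WT skin, a log2 fold change of −0.58 (adjusted p 0.108). Tagln stood at −0.66. Of 10 adipocyte genes 1 was positive, with a median of −0.41, and Pparg stood at −0.47 and Cfd at −0.61. Of 9 fibroblast genes 1 was positive, with a median of −0.26, and Col1a2 stood at −0.31 and Dcn at −0.40. Of 7 endothelial genes 0 were positive, with a median of −0.37, and Esam stood at −0.67 and Cldn5 at −0.76. Of 7 Schwann cell genes 3 were positive, with a median of −0.14, and Pmp22 stood at −0.43.

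Of 9 genes listed for cardiac muscle 4 were tested and 0 were positive. Myl4, an atrial and embryonic light chain, stood at −1.22 and Tnnt2, the cardiac and embryonic troponin T, at −0.72, both from low levels of 7.64 to 21.4 and 11.5 to 21.97 normalized counts in KO skin against 18.1 to 48.9 and 18.8 to 36.7 in WT skin. Both hair follicle genes that were tested, Foxn1 at 0.98 and Tchh at 0.62, were positive. Ivl and Dsg3 had the smallest p among keratinocyte genes, at 1.57 and 1.23, and Cd68 and S100a8 among leukocyte genes, at −0.74 and −1.12. limma called 0 in each of the lists of this and the preceding paragraph, with 0 called by edgeR as well. On the recovered reads DESeq2 called 4 keratinocyte genes higher in KO skin (Ivl, Dsg3, Dsp and Trp63) and, among genes lower in KO skin, Pmp22, Acta2, Myl4 and S100a8; Dsp and Trp63 are named after their values were seen. At an unadjusted p under 0.05 limma gave 7 keratinocyte and 2 hair follicle genes higher, and, lower, 5 leukocyte, 4 smooth muscle, 4 adipocyte, 2 endothelial, 2 Schwann cell and 2 cardiac genes and 0 fibroblast genes. Over all genes DESeq2 called 4.63%, and limma gave 12.9% higher and 11.5% lower at an unadjusted p under 0.05.

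The muscle genes tracked one another across libraries once each gene was centred on its group mean, with a median Pearson r of 0.76 between a gene and the mean of the other 33 over 11 libraries. Acta1 was most like the rest with r = 0.97, followed by Tnnt3 with 0.95 and Des with 0.93. The genes least like the rest were Tnni1 at −0.24, Xirp2 at −0.15, Myh4 at −0.09, Tnnc1 at 0.16 and Myh2 at 0.19. Tnni1 rests on 2 to 25 reads per library and Tnnc1 on 5 to 61, and the part of counting noise in their low r was not tested. These correlations share libraries and depth and are descriptions.

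Among the 13181 other tested genes, those most like the mean of the 34 were Bin1, which shapes the T-tubules of muscle, and the transcription factor Twist2, both with r = 0.95. Inhba, Rrad, Chkb and Hfe2 followed with 0.94 each, then Eef1a2, Cpt1b and Prss23 with 0.93 each and Sgca with 0.92. Eef1a2 encodes the elongation factor of muscle and neurons, Cpt1b the muscle carnitine transferase and Sgca a sarcoglycan of the muscle membrane. The other skeletal muscle list had a median r of 0.67 and supplied 11 of the 100 genes most like the mean, against a median of −0.03 over all other genes.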

How the data were processed

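The unit of the deposited table is a normalized count signal, to judge by its values a gene count scaled by a constant for each library. The submitters' processing notes name GRCm38 as the build and, as tools, DESeq2 1.8.1, featureCounts 1.4.6 and TopHat2 2.0.8. No source used here gives the annotation version or the strand setting. In each library all values (100% within 0.01) were whole steps of what 1 read is worth, from which reads were recovered. No columns were left out. Counts of the 25 pairs of libraries within a genotype differed beyond sampling noise (chi-square per degree of freedom at least 4.48), and all 11 were kept.

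Genotypes were compared with limma 3.58.1 (R 4.3.3, trend) on log2(normalized count + 1) of the 13215 genes with a mean of at least 10, adjusted by Benjamini-Hochberg at 0.05. The +1 understates changes of low genes. Ratios were compared with a two-sided exact permutation test. Recovered reads were tested with edgeR 4.0.16 and DESeq2 1.42.0. The pseudocount was also set to 0.5 and 5 and the filter to none or to a mean of at least 50. Further alternatives were TMM, quantile normalization, array weights, and leaving out each library or KO 9 and KO 12 together. No label sets KO 9 and KO 12 apart from the other KO libraries, and no pair of WT libraries was left out together. Removing a length trend and a depth covariate were added after seeing the data. The limma, edgeR and DESeq2 fits, and no other step, were tested on simulated counts.

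Positions and merged exon lengths come from GENCODE M21 on GRCm38, matched by symbol for 94.2% of tested genes. Promoter sequences come from RefSeq, GRCm38.p6. The 34 members and all lists were chosen with earlier results of these data known. Genes were named by rule: all 34, Trex2, from each other list the called genes (up to 4) or the 2 of smallest p, and the 10 other genes most like the mean of the 34. Myh3, Myh6, Myh7, Myl2, Myl3 and Nppa were below the filter and not tested, and Ube2c, Rabep2, Dsp, Trp63 and Myh8 were named outside the rule after seeing values. One gene that the rule takes is not reported here.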

Additional observations from a re-analysis of the deposited data

Results flagged for a closer look

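In 80 groups of libraries (each muscle gene and ratio in each genotype) the highest and lowest values were compared with the rest by Dixon's criterion, on the scale of log2(normalized count + 1) for genes, under which chance marks about 1 group in 20. There were 3 such values. Tnnt1 in KO 12 was the lowest KO value, 4.86 normalized counts, with a gap to the next library of 0.708 of the group's range on that log2 scale. Tnnc1 in WT 4 was the highest WT value, 67.8 normalized counts, with a gap of 0.799 of the range. Trdn in WT 2 was the highest WT value, 1889 normalized counts, with a gap of 0.804 of the range.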

How the results depend on the processing

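The 34 fold changes were recomputed under each alternative, giving 779 values, of which 745 kept sign and side of the threshold, 33 changed sign and 1 passed the threshold. No sign changed for 19 genes, the slow troponins, Myh4, Ttn, Neb, Des and Ckmt2 among them, and 1 or more did for the 15 others. The mean of at least 50 leaves the slow troponins untested. Genes called were 2 in limma, 6 with array weights, 4 in edgeR, 576 in DESeq2 and 1 with the length trend removed, and 2 to 740 without any one library (740 without WT 4; the cause was not tested). Muscle genes called were 0, and 1 in DESeq2 (Tnnt1, −1.16), and 0 to 0 without any one library. The Tnnt1 to Tnnt3 ratio ran from −1.06 to −0.74 without any one library and passed the threshold without KO 9 (−1.06, adjusted exact permutation p 0.0476; range of adjusted p 0.0476 to 0.171). Myh2 to Myh1 ran from −0.34 to 0.15, Myh4 to Myh1 from −1.76 to −0.92, Myh4 to Myh2 from −1.42 to −0.68, Tnni1 to Tnni2 from −0.65 to −0.14 and Tnnc1 to Tnnc2 from −0.97 to −0.25. Signs changed with quantile normalization for Acta1 (0.20) and Actn2 (0.0350), and with array weights for Acta1 (0.0137), Actn2 (0.0525) and Pygm (0.0321). Without KO 9 and KO 12 they changed for Actn3 (0.0686), Tnnt3 (0.00821), Myoz1 (0.00950), Acta1 (0.17), Actn2 (0.20), Mb (0.0614), Eno3 (0.0243) and Pygm (0.17). These are the KO libraries with the lowest muscle share and the lowest of all for each of these genes, so leaving them out could only raise these values. Signs changed with the length trend removed for Acta1 (0.0576), and with the depth covariate for Myh2 (−0.00516), Myl1 (0.0532), Pvalb (0.0933), Casq1 (0.00710), Mybpc1 (−0.0173), Actn2 (0.00347), Ckm (0.0571) and Eno3 (0.0419). Without any one library Atp2a1 ran from −0.11 to 0.16, Actn2 from −0.13 to 0.0514, Pygm from −0.26 to 0.0128 and Mybpc1 from −0.00649 to 0.22. No paired analysis was possible because KO replicates 7 to 12 and WT replicates 2 to 6 share no number. Depth limits the slow troponins most, at 2 to 61 reads per library.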
